A study of Physcomitrium patens with 24 samples.

Results

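COP1 and DET1 are repressors of light responses, and the moss Physcomitrella (Physcomitrium) patens carries several genes that the study's table of clock-related genes assigns to them. Here 5 of these genes are described here, chosen by gene identifier: the COP1 homologs Pp3c5_26150, Pp3c6_5030, Pp3c16_19410 and Pp3c1_13190, and the DET1 homolog Pp3c19_5540. They are 5 of the 32926 genes in the count files, and all 5 passed the filter on low counts, among 21429 genes that did. The same table gives 9 genes the COP1 locus of Arabidopsis, and the other 5 are summarised at the end. All plants were 7-day protonemata, the filamentous stage of the moss, of the Gransden strain, grown on agar under a photoperiod of 16 h of light and 8 h of dark. Control protonemata stayed at 24 °C, heated ones were kept at 30 or 37 °C, and each was harvested at 1, 6, 12 or 24 h. Each of the 12 groups has 2 biological replicates, giving 24 libraries of polyadenylated RNA. The sources do not say whether the replicates were separate cultures. The p-values measure the spread between replicates, pooled over all 12 groups, and this spread may be technical. No protonema marker carries an identifier of these files in the sources used, so the tissue label was not checked against markers.

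In Arabidopsis, COP1 is a ubiquitin ligase with a RING finger and WD40 repeats that marks light-signalling transcription factors such as HY5 for degradation in the dark. It works in complexes with the SPA proteins, and light acting through phytochromes and cryptochromes restrains it. DET1 belongs to a complex with COP10 and DDB1 that binds the scaffold CUL4 and acts beside COP1. In Arabidopsis, COP1 and DET1 are also known from the clock and from growth in warm conditions. These roles are background from Arabidopsis, and the roles of the moss genes were not measured.

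Total counts per library ran from 4332911 to 10696081, and the members' own counts from 4 to 3212. Levels are given in CPM, counts divided by a library size that TMM corrects for composition. They depend on gene length, so levels were not compared between genes. Differences are log2 fold changes, given with their standard error (SE), from edgeR's quasi-likelihood test over all 24 libraries, and a gene was called changed where the p-value adjusted over all genes tested was under 0.05 and the log2 fold change was at least 1 in size. In whole tissue, fewer cells of a type and less RNA per cell cannot be told apart. The counting did not use strand, so reads of overlapping or antisense genes cannot be told apart, and homologs with near-identical stretches may share reads.

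Without heat, 3 of the COP1 homologs and the DET1 homolog were high at 1 h, low at 12 h and high again at 24 h, whereas Pp3c1_13190 ran the other way. Pp3c5_26150 stood at 131 and 130 CPM at 1 h, 22.0 and 17.3 at 6 h, 5.64 and 5.11 at 12 h, and 194 and 178 at 24 h in the 2 replicates. Pp3c6_5030 had 119.6 and 119.5 CPM at 1 h, 28.8 and 27.4 at 6 h, 3.91 and 3.73 at 12 h, and 102 and 107 at 24 h. For both genes, the 12 h libraries lay below every other library of unheated moss. The swing was shallower for Pp3c16_19410, with 106 and 99.3 CPM at 1 h, 69.3 and 51.3 at 6 h, 32.0 and 30.5 at 12 h, and 103 and 120.2 at 24 h. The DET1 homolog Pp3c19_5540 had 252 and 204 CPM at 1 h, 76.0 and 62.8 at 6 h, 34.6 and 34.1 at 12 h, and 253 and 262 at 24 h. In contrast, Pp3c1_13190 had 15.3 and 18.2 CPM at 1 h, 80.5 and 86.2 at 6 h, 82.3 and 97.4 at 12 h, and 13.9 and 15.1 at 24 h. Its 6 h and 12 h libraries overlapped each other and lay far above those of 1 h and 24 h. The ratio of the highest to the lowest group mean at 24 °C was 34.6 for Pp3c5_26150, 31.3 for Pp3c6_5030, 7.51 for Pp3c19_5540, 6.18 for Pp3c1_13190 and 3.57 for Pp3c16_19410.

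**Figure D1:**
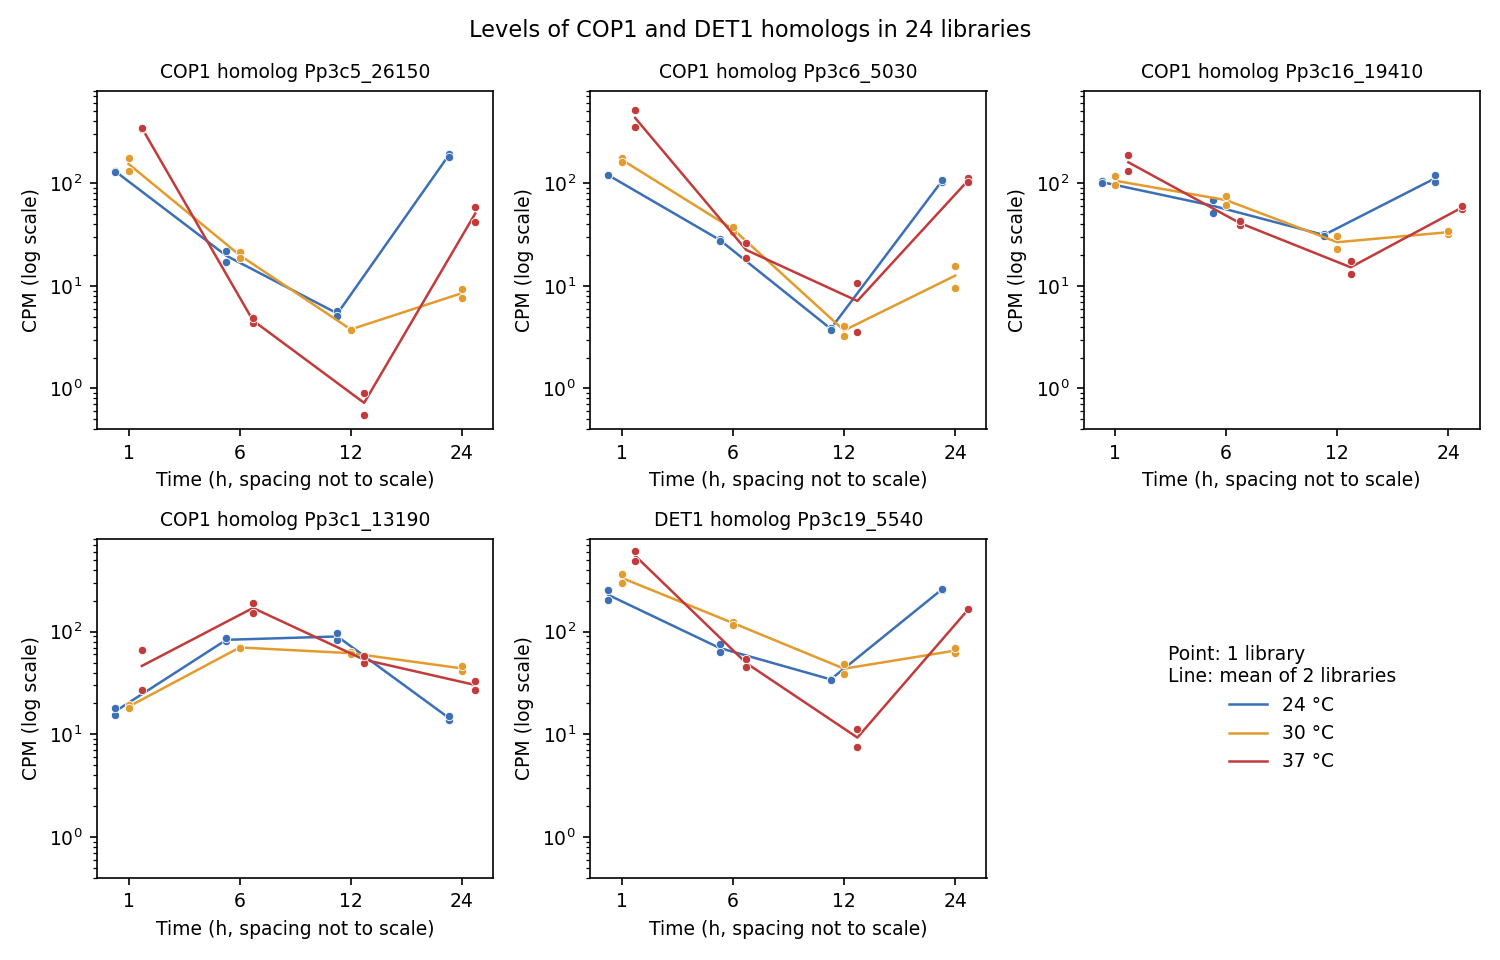
Level of each homolog in CPM (log axis) at 1, 6, 12 and 24 h, spaced evenly, with 1 point for each library and lines through the means of 2 libraries at 24, 30 and 37 °C. The panels of Pp3c5_26150, Pp3c6_5030, Pp3c16_19410 and Pp3c19_5540 dip at 12 h, that of Pp3c1_13190 does not, and at 24 h the 30 °C libraries lie below those of 24 and 37 °C in the 4 panels that dip.

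These swings were tested between times within the 24 °C libraries, which asks how far the members move with no heat at all. Between 1 and 12 h, 4 members fell, where 6.16% of all 21429 genes tested were called lower, and 1 rose, against 7.93% called higher. The falls were -4.60 ± 0.21 (SE, edgeR adjusted p = 2.1e-10) for Pp3c5_26150, -4.96 for Pp3c6_5030, -2.73 for Pp3c19_5540 and -1.71 for Pp3c16_19410. Pp3c1_13190 rose by 2.42 ± 0.28 (SE, edgeR adjusted p = 4.7e-06). At 6 h, 3 of these 4 were already lower than at 1 h (5.43% of genes called lower), Pp3c16_19410 being short of the fold limit at -0.77, and Pp3c1_13190 was higher by 2.32 (8.39% called higher). From 12 to 24 h every direction turned: 4 members rose, against 5.51% of genes called higher, by 5.11, 4.77, 2.91 and 1.83 for Pp3c5_26150, Pp3c6_5030, Pp3c19_5540 and Pp3c16_19410, and Pp3c1_13190 fell by 2.63, against 4.87% called lower. Between 1 and 24 h none of the 5 was called (2.78% of genes called higher and 0.961% lower), with differences from -0.21 (95% interval -0.83 to 0.42) for Pp3c1_13190 to 0.51 (0.15 to 0.88) for Pp3c5_26150. The latter was the 1 member with an unadjusted p under 0.05 in edgeR, a threshold at which all genes were not counted. DESeq2 and limma-voom also called 0. The 24 °C libraries of 1 h and 12 h each enter more than 1 of these comparisons. The light or dark phase at each harvest is not given in the sources used here, so hours since the start and phase of the day cannot be told apart.

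The comparisons with 24 °C at the same time ask which members heat shifts away from this course. In 40 pairs of a member with a heat comparison, 7 were called higher, 9 were called lower and 24 were not called. Of all genes, 0.658% were called higher and 0.457% lower after 6 h at 30 °C, the smallest shares. The largest were 18% and 19.5%, after 24 h at 37 °C. The pooled counts therefore have no single share beside them. The libraries of 32 of the 40 pairs did not overlap. The share of all genes that separate this way was not computed, so this count is not a result about the members. Up to 12 h of 30 °C, no member was called changed by edgeR, DESeq2 or limma-voom. In edgeR, 1, 1 and 2 of the 5 had an unadjusted p under 0.05 at 1, 6 and 12 h. The share of all genes under this unadjusted threshold was not computed. After 1 h at 30 °C (2.46% of genes called higher and 1.07% lower) the differences ran from 0.04 for Pp3c16_19410 to 0.55 for Pp3c19_5540, and after 12 h (1.61% and 1.05%) from -0.54 for Pp3c1_13190 to 0.34 for Pp3c19_5540. After 6 h (0.658% and 0.457%) the DET1 homolog had 125.5 and 117.5 CPM against 76.0 and 62.8 at 24 °C. This difference of 0.81 ± 0.18 (SE, edgeR adjusted p = 0.025) passed the p threshold but not the fold limit, and the 2 groups did not overlap. The other 4 members had differences of -0.25 to 0.35 at 6 h.

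After 24 h at 30 °C all 5 members differed from the control. Of these, 4 were lower, where 9.41% of genes tested were called lower, and 1 was higher, where 9.3% were called higher. Pp3c5_26150 stood at 7.62 and 9.36 CPM against 194 and 178 at 24 °C, or 21.8-fold less, a log2 change of -4.45 ± 0.21 (SE, edgeR adjusted p = 5e-10). The nearest unheated group was that of 12 h, at 5.64 and 5.11 CPM. Pp3c6_5030 had 9.44 and 15.7 CPM against 102 and 107, a log2 change of -3.05 ± 0.32 (SE, edgeR adjusted p = 1.9e-06). The DET1 homolog Pp3c19_5540 had 62.1 and 68.7 CPM against 253 and 262, a log2 change of -1.98 ± 0.19 (SE, edgeR adjusted p = 7e-07). Pp3c16_19410 had 32.1 and 34.6 CPM against 103 and 120.2, or -1.74 ± 0.20 (SE, edgeR adjusted p = 5.4e-06). In none of the 4 did a heated library reach a control library. Such separation was found in 32 of the 40 pairs above, so it was not particular to called differences. Pp3c1_13190 moved the opposite way, to 41.9 and 46.0 CPM against 13.9 and 15.1, a log2 change of 1.60 ± 0.28 (SE, edgeR adjusted p = 0.00033). Tested against a log2 change of 1 in place of 0, this rise was not called, with adjusted p = 0.45 in limma-voom treat and 0.079 in edgeR's glmTreat, while the 4 falls were.

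**Figure D2:**
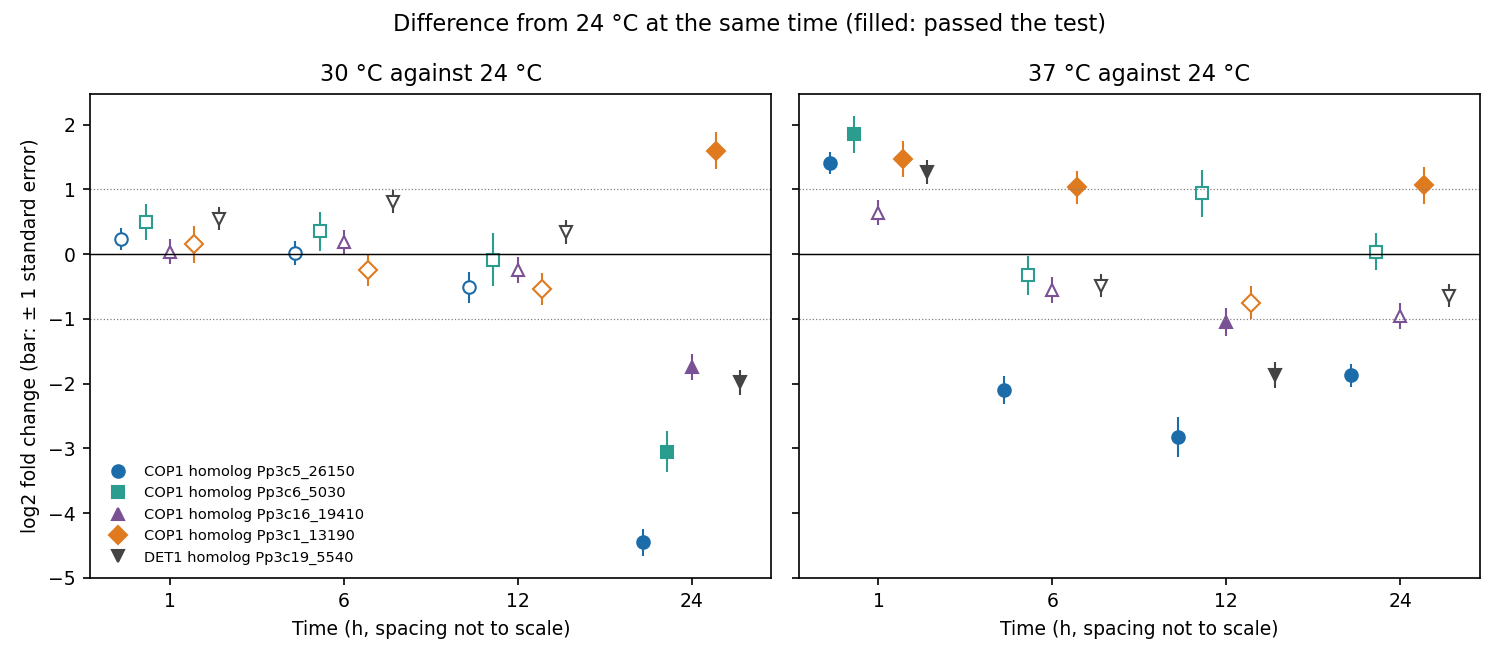
Log2 fold change of each homolog against 24 °C at the same time, for 30 °C (left) and 37 °C (right), with bars of 1 standard error and filled symbols for differences that passed the test. At 30 °C the filled symbols stand at 24 h, from -4.45 for Pp3c5_26150 to 1.60 for Pp3c1_13190, and at 37 °C they are spread over all 4 times.

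The change from the earlier times of 30 °C was itself tested as a difference of responses. Against the response at 1 h, the response at 24 h was lower for 4 members, against 7.48% of genes called lower, and higher for 1, against 4.81% called higher. The differences were -4.68 for Pp3c5_26150, -3.55 for Pp3c6_5030, -2.53 for Pp3c19_5540, -1.79 for Pp3c16_19410 and 1.45 for Pp3c1_13190. The last call (edgeR adjusted p = 0.02) ended when replicate 2 of 24 °C 1 h, replicate 1 of 24 °C 24 h or either 30 °C library of 1 h was left out (1.32 to 1.49, edgeR adjusted p from 0.053 to 0.075), and under limma-voom eBayes (adjusted p = 0.052). Against 6 h (5.23% lower, 3.42% higher) and 12 h (3.67% lower, 2.26% higher) the same 5 calls were made in the same directions. The 24 h libraries of 24 °C and 30 °C enter all 3 of these tests.

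The rise from 12 to 24 h was then compared within each temperature, a comparison chosen after the levels were seen. At 30 °C Pp3c5_26150 went from 3.82 and 3.71 CPM to 7.62 and 9.36, a rise of 1.17 ± 0.23 (SE, edgeR adjusted p = 0.043) against 5.11 at 24 °C. It was the 1 member called, in a comparison where 0.0653% of genes were called higher and 0.117% lower, and the call ended when any 1 of the 4 libraries was left out. Pp3c6_5030 had 1.81 (95% interval 1.03 to 2.60, adjusted p = 0.053, edgeR), Pp3c19_5540 had 0.59 (0.20 to 0.98), Pp3c16_19410 had 0.34 (-0.09 to 0.77) and Pp3c1_13190 had -0.49 (-1.03 to 0.05). At 37 °C, by contrast, 4 members were higher at 24 than at 12 h (6.54% of genes called higher, 5.37% lower), by 6.06 for Pp3c5_26150, 4.14 for Pp3c19_5540, 3.87 for Pp3c6_5030 and 1.94 for Pp3c16_19410. Pp3c1_13190 had -0.82 (-1.37 to -0.27) there, short of the fold limit.

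**Figure D3:**
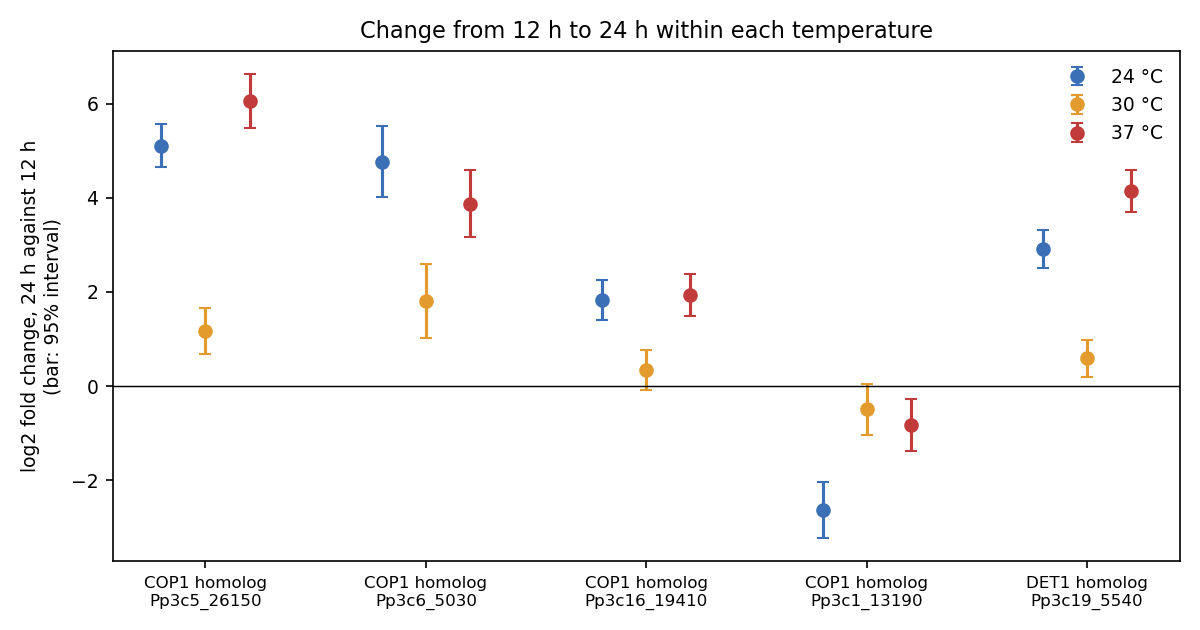
Log2 fold change from 12 to 24 h for each homolog at 24, 30 and 37 °C, with 95% intervals. The intervals of 30 °C lie closer to 0 than those of 24 °C for every homolog, at 1.17 against 5.11 for Pp3c5_26150 and -0.49 against -2.63 for Pp3c1_13190.

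The 24 h libraries of 30 °C were also set against the 12 h libraries of 24 °C, again chosen after the levels were seen. Here 1 member was higher (6.47% of genes called higher) and 1 lower (4.06% called lower). Pp3c6_5030 stood above the unheated 12 h level by 1.72 ± 0.35 (SE, edgeR adjusted p = 0.0026), and Pp3c1_13190 below it, at -1.03 ± 0.25 (SE, edgeR adjusted p = 0.009). For Pp3c1_13190 this call ended when replicate 2 of the unheated moss (-0.91) or replicate 1 of the heated moss (-0.97) was left out. The differences of Pp3c16_19410, Pp3c5_26150 and Pp3c19_5540 were 0.09 (95% interval -0.33 to 0.51), 0.66 (0.22 to 1.10) and 0.93 (0.54 to 1.32). In all 5 genes the 30 °C value of 24 h thus lay between the 12 h and the 24 h mean of unheated moss.

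After 1 h at 37 °C, 4 of the 5 members rose, where 12.7% of genes were called higher, and none fell, where 10.7% were called lower. Pp3c5_26150 reached 341 and 349 CPM against 131 and 130, a log2 change of 1.40 ± 0.17 (SE, edgeR adjusted p = 7.9e-06). Pp3c6_5030 reached 352 and 514 CPM against 119.6 and 119.5, or 1.85 ± 0.29 (SE, edgeR adjusted p = 8.1e-05). The DET1 homolog had 485 and 614 CPM against 252 and 204, or 1.27 ± 0.18 (SE, edgeR adjusted p = 3.2e-05). For these 3 genes, the group held the highest level of all 12. Pp3c16_19410, with 133 and 187 CPM against 106 and 99.3, had 0.64 (95% interval 0.23 to 1.05, adjusted p = 0.015, edgeR) and missed the fold limit. Pp3c1_13190 had 26.8 and 66.0 CPM against 15.3 and 18.2, a log2 change of 1.47 that fell to 0.67 and lost its call without replicate 2 of 37 °C 1 h. Fitted with only the libraries compared, it was not called either, at 1.48 (edgeR adjusted p = 0.076). The 37 °C replicates of 1 h differed from each other more than those of any other group, the chi-square per gene being 42.6 there and 3 to 26.3 elsewhere. Their TMM factors were also the lowest of all, and scaled by library totals alone the median of all genes moved by -0.45 and 1 member, Pp3c6_5030, was called. Leaving out either 37 °C library of 1 h ended the call of no member other than Pp3c1_13190.

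From 6 h on, the calls of the members at 37 °C parted from each other, though at 6 h all but Pp3c1_13190 had negative differences. At 6 h Pp3c5_26150 had 4.33 and 4.86 CPM against 22.0 and 17.3, a log2 change of -2.10 ± 0.21 (SE, edgeR adjusted p = 5.7e-07), the 1 member lower where 17.5% of genes were. Pp3c1_13190 had 189.9 and 151 CPM against 80.5 and 86.2, or 1.03 ± 0.25 (SE, edgeR adjusted p = 0.0025), the 1 member higher where 13.8% of genes were. Each of these pairs of groups was separate, but the call of Pp3c1_13190 ended when replicate 1 of either temperature was left out (0.98 without the control, 0.85 without the heated library). Pp3c6_5030 (26.2 and 18.5 CPM), Pp3c16_19410 (39.2 and 42.9) and Pp3c19_5540 (53.7 and 45.1) had differences of -0.33, -0.55 and -0.49. Their adjusted p-values from edgeR were 0.38, 0.026 and 0.034, so the last 2 passed the p threshold but not the fold limit.

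At 12 h of 37 °C, 3 members were lower, where 18.8% of genes were, and none higher, where 16.7% were. Pp3c5_26150 was down to 0.552 and 0.897 CPM, which are 4 and 9 reads, against 5.64 and 5.11, a log2 change of -2.82 ± 0.31 (SE, edgeR adjusted p = 7.4e-07). The DET1 homolog was at 7.45 and 11.2 CPM against 34.6 and 34.1, or -1.87 ± 0.20 (SE, edgeR adjusted p = 7.3e-07). Pp3c16_19410, at 17.4 and 13.0 CPM against 32.0 and 30.5, had -1.05, which became -0.85 and lost its call without replicate 2 of 37 °C 12 h. For these 3 genes this was the lowest of the 12 groups. Pp3c6_5030 did not follow them. Its replicates stood apart at 3.59 and 10.7 CPM, on either side of the control values of 3.91 and 3.73. Its difference was 0.94 (95% interval 0.17 to 1.71), or 1.48 without replicate 1 of 37 °C 12 h. This rise rests on replicate 2, with 107 reads, as replicate 1, with 26 reads, lay below both control values. Pp3c1_13190 had 49.1 and 57.7 CPM and a difference of -0.75 (-1.28 to -0.21), short of the fold limit.

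By 24 h of 37 °C, 1 member was lower (19.5% of genes called lower) and 1 higher (18% called higher). Pp3c5_26150 had 59.3 and 42.1 CPM against 194 and 178, a log2 change of -1.87 ± 0.18 (SE, edgeR adjusted p = 1.4e-07). Pp3c1_13190 had 33.4 and 27.1 CPM against 13.9 and 15.1, or 1.06 ± 0.28 (SE, edgeR adjusted p = 0.0041), and this call ended when replicate 1 of either temperature was left out (1.00 and 0.90). Pp3c16_19410 (56.0 and 59.7 CPM) had -0.95 with an adjusted p of 0.00056 from edgeR, short of the fold limit. Pp3c19_5540 (167 and 165 CPM) had -0.64 (edgeR adjusted p = 0.0063), also short of it. Pp3c6_5030 was at 112 and 102.5 CPM against 102 and 107 in the controls. Its groups overlapped, with a difference of 0.04 (95% interval -0.57 to 0.64).

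The heat response at 37 °C was also compared between times. Against the response at 1 h, that at 6 h was lower for 4 members (14.4% of genes called lower, 8.65% higher), all but Pp3c1_13190, with differences from -1.19 for Pp3c16_19410 to -3.49 for Pp3c5_26150. The call of Pp3c16_19410 ended when replicate 1 of 24 °C 6 h was left out (-0.96), without replicate 2 of 37 °C 1 h (-0.94), and under library totals (-0.79). That at 12 h was lower for 4 members as well (16.8% lower, 11% higher), here all but Pp3c6_5030, which had -0.92 (95% interval -1.90 to 0.07). Without replicate 2 of 37 °C 12 h, Pp3c6_5030 was called too, at -1.95 (edgeR adjusted p = 0.0021). At 24 h it was again lower for 4 (18.3% lower, 12.7% higher), with Pp3c1_13190 at -0.40 (-1.24 to 0.44). All 3 tests share the 1 h libraries.

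The 2 heat levels were compared directly at each time. After 1 h, 3 members were higher at 37 than at 30 °C (8.16% of genes called higher, 5.4% lower): Pp3c6_5030 by 1.35, Pp3c1_13190 by 1.31 and Pp3c5_26150 by 1.16. The second of these became 0.53 without replicate 2 of 37 °C 1 h and the third 0.96 without replicate 2 of 30 °C 1 h, both then uncalled. After 6 h, Pp3c5_26150 and Pp3c19_5540 were lower at 37 °C, at -2.11 and -1.30 (13.8% called lower), and Pp3c1_13190 was higher by 1.28 (9.75% called higher). After 12 h the same pair was lower (15.7% called lower), at -2.31 and -2.21. Pp3c6_5030 was called higher at 12 h (11.9% called higher) with 1.03, which became 0.00 without replicate 2 of 37 °C 12 h.

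After 24 h, 3 members were higher at 37 than at 30 °C (12.7% of genes called higher, 16.3% lower). Pp3c6_5030 was 8.5-fold higher, with a log2 change of 3.09 ± 0.32 (SE, edgeR adjusted p = 7.3e-07). Pp3c5_26150 was 5.96-fold higher, at 2.57, and Pp3c19_5540 was 2.54-fold higher, at 1.34. Pp3c16_19410 had 0.79 (95% interval 0.37 to 1.21) and Pp3c1_13190 -0.54 (-1.08 to 0.01). In Pp3c5_26150, Pp3c6_5030, Pp3c16_19410 and Pp3c19_5540, the lowest libraries of 24 h were those of 30 °C.

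Ordered by level over all 12 groups, Pp3c5_26150 ran from 345 ± 5.66 CPM at 37 °C 1 h (SD, n = 2) through 186 ± 11.1 at 24 °C 24 h to 0.724 ± 0.244 at 37 °C 12 h, a ratio of 476. In this order 2 pairs of neighbours overlapped, 30 °C 1 h with 24 °C 1 h and 30 °C 6 h with 24 °C 6 h. For Pp3c19_5540 the order began with 550 ± 91.5 CPM at 37 °C 1 h and 334 ± 48.4 at 30 °C 1 h, and ended with 9.30 ± 2.62 at 37 °C 12 h, a ratio of 59.1. Its overlapping neighbours were 24 °C 6 h with 30 °C 24 h and 37 °C 6 h with 30 °C 12 h. In Pp3c6_5030 the 3 groups of 1 h came first, from 433 ± 115 down to 119.5 ± 0.0859 CPM. Its last 4 groups, 30 °C 24 h and the 12 h groups of 37, 24 and 30 °C, were not separated from their neighbours, at means of 12.6 to 3.68 CPM, and 37 °C 24 h overlapped 24 °C 24 h. Pp3c16_19410 spanned a ratio of 10.5, from 159.8 ± 38.5 at 37 °C 1 h to 15.2 ± 3.13 CPM at 37 °C 12 h. Its groups of 24 °C 24 h, 30 °C 1 h and 24 °C 1 h overlapped in turn, as did those of 30 °C 6 h, 24 °C 6 h and 37 °C 24 h. The order of Pp3c1_13190 began with 170.3 ± 27.7 CPM at 37 °C 6 h and ended with 14.5 ± 0.862 at 24 °C 24 h, a ratio of 11.7, and 24 °C 12 h overlapped 24 °C 6 h, 37 °C 1 h overlapped both 37 °C 12 h and 30 °C 24 h, and 30 °C 1 h overlapped 24 °C 1 h. Its 37 °C 1 h libraries, at 26.8 and 66.0 CPM, also enclosed those of 30 °C 12 h and 37 °C 24 h, which were not its neighbours.

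Summed over the 4 COP1 homologs, reads of unheated moss stood at 370 ± 3.7 CPM at 1 h (SD, n = 2) and 417 ± 5.44 at 24 h, with 191 ± 13 and 130.3 ± 9.08 at 6 and 12 h between them. After 24 h the sum was 98.3 ± 10.3 at 30 °C and 246 ± 21 at 37 °C. It was highest after 1 h at 37 °C, at 984 ± 186 CPM. Reads of the 3 homologs other than Pp3c1_13190 made up 95.5% of the sum at 24 °C 1 h, 31.2% at 12 h and 96.5% at 24 h, and 55.2% after 24 h at 30 °C. These are shares of reads, not of transcripts, and no test was run on the sums.

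The likeness of the members was described by Pearson's r of log2 CPM over the 12 group means, which share libraries and the course of the day. Among Pp3c5_26150, Pp3c6_5030, Pp3c16_19410 and the DET1 homolog, r ran from 0.91 to 0.98. Between each of them and Pp3c1_13190 it ran from -0.55 to -0.69. Of 17190 genes with a mean log2 CPM of at least 1, the DET1 homolog's nearest was Pp3c5_26150 itself, at 0.976. The nearest genes to the others were Pp3c21_9830 for Pp3c5_26150 (0.986), Pp3c25_630 for Pp3c6_5030 (0.972), Pp3c14_22720 for Pp3c16_19410 (0.982) and Pp3c7_7830 for Pp3c1_13190 (0.961). Pp3c21_9830 was also the second nearest to the DET1 homolog, at 0.975. The files give these identifiers no gene name.

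The other genes of the light pathway were taken from the same table of the study. Its calls in these libraries are part of that table, so the lists are not independent evidence of direction. After 24 h at 30 °C, 9.3% of all genes tested were called higher and 9.41% lower. None of the 5 other genes assigned to COP1 was called by edgeR, and 2 had an unadjusted p under 0.05, where all genes were not counted. With 5 genes, this lack of calls lies near the shares of all genes. Their median difference was 0.34 against 0.07 for all genes and -1.98 for the 5 members, and the sets were not tested against each other. Both SPA1 homologs, whose Arabidopsis counterpart is a partner of COP1, were lower. Pp3c2_15860 had 66.4 ± 12.3 CPM against 181 ± 14.5 (SD, n = 2), a log2 change of -1.45 ± 0.18 (SE, edgeR adjusted p = 1.3e-05), and Pp3c1_24850 from 151 ± 4.16 to 58.7 ± 5.42 CPM, or -1.36 ± 0.16 (SE, edgeR adjusted p = 4.8e-06). Without heat, Pp3c2_15860 fell from 1 to 12 h by 1.61 and was higher at 24 than at 12 h by 1.38. Pp3c1_24850 had -0.83 and 0.86 in these comparisons, short of the fold limit.

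**Figure D4:**
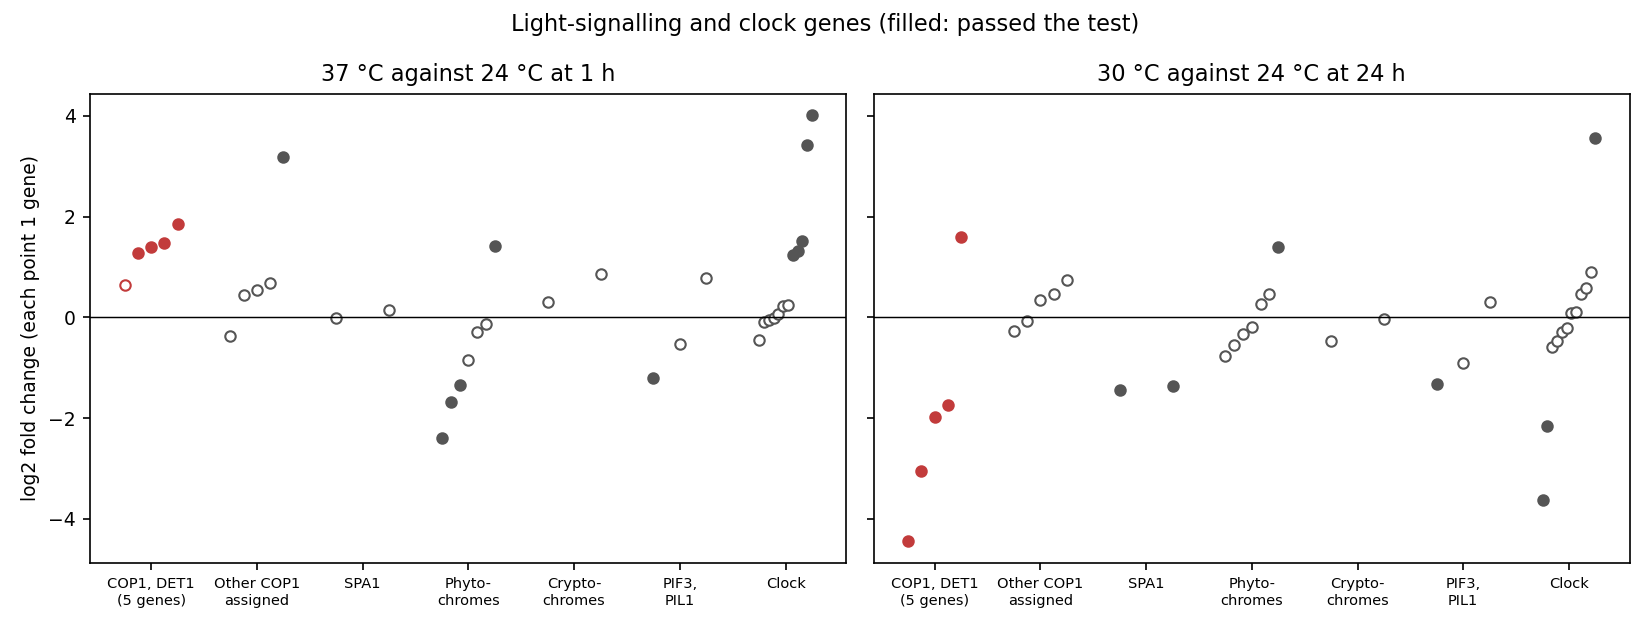
Log2 fold change of each gene of the light-signalling and clock lists after 1 h at 37 °C (left) and 24 h at 30 °C (right) against 24 °C, with 1 point per gene, filled where it passed the test and red for the 5 COP1 and DET1 homologs described. At 30 °C the 5 other COP1-assigned genes stay unfilled, while both SPA1 points are filled, at -1.45 and -1.36.

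The light receptors, which act upstream of COP1, and the clock homologs were counted at the same point, where 9.3% of all genes tested were called higher and 9.41% lower. Of 7 phytochromes, 1 was higher (Pp3c16_18760, by 1.40) and none lower, and neither of the 2 cryptochromes was called in any comparison. Of 3 homologs of PIF3 and PIL1, transcription factors that phytochromes bind, the PIL1 homolog Pp3c1_38820 was lower, at -1.33. Among 12 clock homologs, 1 was higher and 2 lower. The CCA1 homolog Pp3c3_37540, a morning transcription factor in Arabidopsis, went from 217 ± 28.1 to 17.6 ± 4.57 CPM (log2 change -3.62 ± 0.30, SE, edgeR adjusted p = 2e-07), and the EPR1 homolog Pp3c12_17450 had -2.15. The pseudo-response regulator homolog Pp3c16_18610 (PRR3) rose to 265 ± 17.4 CPM from 22.4 ± 3, a log2 change of 3.57 ± 0.18 (SE, edgeR adjusted p = 1.5e-09).

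After 1 h at 37 °C, where 12.7% of all genes tested were called higher and 10.7% lower, the SPA1 homologs showed differences of -0.02 and 0.14, neither of them called. Of the other COP1-assigned genes, Pp3c13_21340 was called higher at 3.18, with 25.3 ± 25 CPM against 2.76 ± 0.459. Falls were called for 3 phytochromes, Pp3c3_23790 by 2.40, Pp3c12_9240 by 1.68 and Pp3c16_20280 by 1.35, and 1 rose (Pp3c16_18760, by 1.42). Rises were called for 5 of the 12 clock homologs and falls for none, led by the XCT homolog Pp3c17_13560 at 4.02 and Pp3c16_18610 at 3.43. Later at 37 °C the COP1-assigned gene Pp3c2_24290 was higher at 6, 12 and 24 h, by 2.38, 1.22 and 1.08. Its level was 495 ± 63.4 CPM at 6 h against 95 ± 12.6 at 24 °C. Pp3c11_15840, also assigned to COP1, was higher at 24 h by 1.11.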

How the data were processed

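RNA from 24 libraries (3 temperatures, 4 times, 2 replicates) was sequenced as strand-specific libraries. The authors demultiplexed with bcl2fastq 1.8.4, aligned with BWA-MEM 0.7.17.1 and counted reads over whole genes with featureCounts at default settings. The deposited values are raw counts per gene with no normalization. Here, a gene was kept if its CPM exceeded 0.5 in 2 or more libraries. TMM factors spanned 0.652 to 1.19. The 12 groups entered a single quasi-likelihood fit in edgeR 4.0.16 (R 4.3.3), with Benjamini-Hochberg adjustment inside each comparison. A standard error is the log2 fold change divided by the square root of F, and uses a spread pooled over the groups. Limma 3.58.1 and DESeq2 1.42.0 served as alternatives.

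The members, lists and tests were chosen with earlier results of these data known. Named genes are the 5 members, list genes that passed a test and the genes nearest in pattern. Homolog names come from the study's clock table, whose own fold changes were not used. Coordinates, gene lengths, protein sequences, promoter motifs and other COP1 or DET1 partners were not analysed here.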

Additional observations from a re-analysis of the deposited data

Results flagged for a closer look

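Heat responses that differed between times by the test of the difference itself (edgeR, adjusted over all genes) were found for every member. At 30 °C the response at 24 h differed from that at 1 h by -4.68 for Pp3c5_26150, -3.55 for Pp3c6_5030, -1.79 for Pp3c16_19410, -2.53 for Pp3c19_5540 and 1.45 for Pp3c1_13190. Of all genes tested, 7.48% were called lower and 4.81% higher. The call at 1.45 ended under limma-voom eBayes and with single libraries left out, as given above. For all 5 genes, the response at 24 h was also set against the 2 other times. That response differed from the one at 6 h by -4.46, -3.40, -1.92, -2.78 and 1.85 in the same order of genes (5.23% called lower, 3.42% higher). From that at 12 h it differed by -3.94, -2.96, -1.49, -2.32 and 2.14, again in this order (3.67% called lower, 2.26% higher).

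At 37 °C the responses at later times were set against that at 1 h, which enters all 3 tests. The response at 6 h was lower by these log2 differences: -3.49 for Pp3c5_26150, -2.18 for Pp3c6_5030, -1.19 for Pp3c16_19410 and -1.76 for Pp3c19_5540 (14.4% of genes tested were called lower). At 12 h the differences were -4.22 for Pp3c5_26150, -1.69 for Pp3c16_19410, -3.14 for Pp3c19_5540 and -2.21 for Pp3c1_13190 (16.8% called lower), and at 24 h they were -3.27 for Pp3c5_26150, -1.82 for Pp3c6_5030, -1.59 for Pp3c16_19410 and -1.90 for Pp3c19_5540 (18.3% called lower). The 37 °C replicates of 1 h differed most from each other, and leaving out replicate 2 of that group ended 1 of these calls, that of Pp3c16_19410 at 6 h (-0.94). Leaving out replicate 1 of 24 °C 6 h ended it too (-0.96). With 2 libraries in a group, no search for single outlying samples was made.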

How the results depend on the processing

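Over 125 member results (76 of them called), 1995 values were computed under alternatives: 1866 kept direction and call, 102 lost the call, 27 gained it and 0 reversed. Most losses came from tests against a log2 fold change of 1, limma-voom treat (31) and glmTreat (22), or from library totals (12). Where calls were lost, library totals moved the median of all genes by -0.45 at 37 °C 1 h and -0.35 for 37 against 30 °C at 1 h. The shifts were 0.39 and 0.62 for the 37 °C responses of 6 and 24 h against 1 h, and -0.13 to 0.08 for the remaining losses under library totals. Shifts of 0.22 at 30 °C 24 h, 0.15 at 37 °C 24 h and 0.11 at 30 °C 12 h came with no lost call. Most losses under the other settings came from leaving out 1 library, which also leaves 1 library in a group. In some of these the log2 fold change shrank. In others it stayed, as at 1.49 against 1.45 for Pp3c1_13190 in the 30 °C response of 24 h against 1 h. Fits of only the libraries compared lost 5, and each remaining setting at most 3. The cause was not tested beyond how each alternative is built.

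Against 24 °C at 24 h of 30 °C, treat and glmTreat each called 4 members, all but Pp3c1_13190. Of all 21429 genes, treat called 192 higher and 628 lower there, and glmTreat 548 and 812. Members called under treat were 1 at 1, 6 and 24 h of 37 °C against 24 °C. Genes called there, higher and lower, were 874 and 329, 986 and 1506, and 1459 and 2268. Against 30 °C, treat left 0 at 1 h and 1 at 6 and 12 h. Gene counts were 329 and 46, 430 and 823, and 692 and 1219. For the 30 °C response of 24 h it left 3, 3 and 2 against 1, 6 and 12 h, and for 37 °C 2 at each later time. Beside them stood 10 and 134, 12 and 121, and 29 and 68 genes for 30 °C. For 37 °C these were 289 and 720, 474 and 1130, and 598 and 1425. With glmTreat the counts were 2 at 1 h and 1 at 6 and 24 h of 37 °C against 24 °C, 0 and 1 at 1 and 6 h against 30 °C, and 3 for the 30 °C response of 24 h against 1 and 12 h. Its gene counts were 1439 and 775, 1452 and 2114, and 2099 and 2819 against 24 °C. Against 30 °C they were 649 and 221, and 740 and 1346. For the 30 °C responses they were 74 and 272, and 63 and 145. Library totals left 1 at 1 and 6 h of 37 °C against 24 °C, and 0 at 1 h against 30 °C. They called 1761 genes higher and 4698 lower, 2685 and 4037, and 1163 and 2646 in turn. With no fold limit, 1 member passed at 30 °C 6 h, 4, 5 and 4 at 6, 12 and 24 h of 37 °C, and 5 at 1 h against 30 °C. Genes passing this way were 265 and 243 at 30 °C 6 h. At 37 °C they were 5437 and 5675, 6106 and 5990, and 6181 and 5979 at 6, 12 and 24 h. At 1 h against 30 °C they were 2836 and 2239. Leaving out 1 library gave 1 to 2 members at 6 and 24 h of 37 °C.

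For 24 against 12 h at 30 °C, 1 member was called (14 genes higher, 25 lower). Treat, eBayes, glmTreat and library totals gave 0 (0 and 1, 87 and 57, 0 and 1, 12 and 27), as did only these libraries. DESeq2, no filter and the replicate block gave 2 (78 and 61, 49 and 49, 36 and 34). For 30 °C 24 h against 24 °C 12 h, 2 members and 1386 and 871 genes were called. Treat and glmTreat gave 0 (142 and 73, 304 and 136). DESeq2 and RLE scaling gave 1 (1357 and 762, 1486 and 783), only these libraries 1, no fold limit 4 (2001 and 2370). The replicate block ended the call of Pp3c6_5030 at 37 against 30 °C 12 h (0.99), added that of Pp3c6_5030 for 24 against 12 h at 30 °C (1.78, edgeR adjusted p = 0.044) and changed no other member's. Whether replicate numbers pair samples was described by the deviations of same-numbered libraries. Their median r was 0.03 over 66 pairs of groups (-0.19 to 0.33), with 42 pairs above 0. A batch shared by some groups was not tested. Depth limits Pp3c5_26150 at 37 °C 12 h, with 4 and 9 reads.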
